A study of Mus musculus with 6 samples.

Results

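CD11b+Gr-1high cells of the spleen were profiled here at baseline, in WT mice that carried no tumor and received no G-CSF. The 2 arrays titled WT were taken from a series of 6, which also holds 2 arrays of G-CSF-treated mice and 2 of mice bearing the 4T1 mammary tumor. The WT animals were female BALB/c mice, 6 to 8 weeks of age when obtained. Cells were sorted by flow cytometry to high purity in separate experiments, and RNA was hybridized to Illumina mouse whole-genome BeadChips. The methods describe the arrays of a group as biologic replicates, but whether 1 animal or a pool gave each RNA is not stated in the sources used here. No other group was compared with WT, and no test was run: each value below is a level in WT cells, given for replicate 1 and replicate 2 in that order.

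CD11b, the integrin chain encoded by Itgam, is carried by granulocytes, monocytes and macrophages. The Gr-1 antibody binds Ly6G and, less strongly, Ly6C, so a high Gr-1 signal enriches for neutrophils and their late precursors. Neutrophils fill their granules in sequence as they mature in the bone marrow. Primary granules with myeloperoxidase and serine proteases are loaded by promyelocytes, secondary and tertiary granules with lactoferrin, cathelicidin and gelatinase by later stages, and mRNA of the early cargo is lost before release. C/EBP family members and PU.1 are transcription factors that drive granulocyte genes.

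For orientation, the stretch of 150 bases before the annotated transcription start is shown for 6 neutrophil genes that ranked among the 25 with the highest signal in WT cells: an alarmin subunit, a cytokine, both lysozymes and 2 granule proteins that sequester iron. The sequences come from RefSeq on build GRCm38.p6 and run 5′ to 3′ on the gene's strand. Capitals mark a match, on either strand, to TATAAA (the TATA box), TTGCNNAA (a form of the C/EBP consensus) or GAGGAAG (PU.1).
S100a8 (chr3:90668921-90669070, plus strand): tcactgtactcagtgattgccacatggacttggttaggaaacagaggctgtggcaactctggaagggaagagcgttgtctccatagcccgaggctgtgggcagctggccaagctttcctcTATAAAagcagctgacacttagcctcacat
Il1b (chr2:129371140-129371289, minus strand): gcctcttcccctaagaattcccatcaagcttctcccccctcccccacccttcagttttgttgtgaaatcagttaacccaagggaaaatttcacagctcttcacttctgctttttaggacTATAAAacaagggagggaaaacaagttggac
Lyz2 (chr10:117282273-117282422, minus strand): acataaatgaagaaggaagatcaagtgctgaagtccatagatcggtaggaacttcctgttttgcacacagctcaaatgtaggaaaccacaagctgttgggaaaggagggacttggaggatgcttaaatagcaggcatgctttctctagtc
Lyz1 (chr10:117292869-117293018, minus strand): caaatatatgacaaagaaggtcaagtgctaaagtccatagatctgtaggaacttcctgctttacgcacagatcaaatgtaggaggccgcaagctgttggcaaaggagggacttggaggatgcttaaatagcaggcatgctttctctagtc
Ltf (chr9:111019142-111019291, plus strand): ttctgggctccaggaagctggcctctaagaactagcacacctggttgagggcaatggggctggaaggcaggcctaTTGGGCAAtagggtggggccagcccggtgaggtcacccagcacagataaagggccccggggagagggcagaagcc
Lcn2 (chr2:32387740-32387889, minus strand): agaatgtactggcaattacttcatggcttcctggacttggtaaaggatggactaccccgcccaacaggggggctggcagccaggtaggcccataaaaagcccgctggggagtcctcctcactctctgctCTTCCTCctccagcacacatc

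S100a8 and Il1b carry TATAAA shortly before the start, Ltf carries the C/EBP letters and Lcn2 the PU.1 letters. Neither lysozyme stretch holds a match, and the Lyz1 and Lyz2 sequences are identical at 129 of 150 aligned positions, including each of the 50 nearest the start. Over the wider window from 250 bases before to 50 after the first listed start, the share of genes with a match was counted on both strands, and matches that share bases with another motif were counted for each. Among 15237 named genes with a promoter sequence, 12.5% held TATAAA, 9.80% TTGCNNAA and 12.9% GAGGAAG. For the 346 most abundant genes with a promoter the shares were 12.4%, 12.1% and 15.6%, for the 1697 intermediate genes 6.31%, 8.07% and 14.7%, and for the 9746 absent genes 14.6%, 10.5% and 12.3%. Of the 100 genes with the highest signal, 83 had a promoter and 21.7% of these held TATAAA. The TATAAA share thus varied more between bands than the other shares, with no steady order by level, and was not tested. Of the 21 neutrophil marker genes that were present and had a promoter, 8 held TATAAA, 6 TTGCNNAA and 4 GAGGAAG. A match is a description of letters and no evidence of binding.

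Presence was read from the detection p-value, the share of negative control beads at least as bright as the probe. A probe was called present when this value was under 0.05 on both WT arrays. By this rule 6169 of 45281 probes, 13.6%, were present, and 34854 were absent, with a detection p of 0.05 or more on both arrays. A further 3006 probes were detected only on replicate 1 and 1252 only on replicate 2. The mean log2 values of present probes ran from 7.07 to 14.32 with a median of 7.96, and those of absent probes from 6.50 to 7.07 with a median of 6.89. The probe just inside the threshold had a higher detection p of 0.0491 and a mean of 7.14, and the probe just outside 0.0502 and 7.28. The deposited values keep the background of the array, so a level near 6.9 is background signal and differences between low levels are compressed.

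The named probes cover 19057 genes, each represented by its present probe with the highest WT mean or, where none was present, by its brightest probe. At least 1 probe was present for 4146 genes, 21.8%, which is the share against which the gene groups below are read. Another 2579 genes were detected on 1 array only, and 12332 were absent. Present genes were divided by rank into the most abundant 10% (415 genes, mean log2 value from 10.43), an upper band (622 genes, 9.14 to 10.42), an intermediate band from the 25th to the 75th percentile (2072 genes, 7.43 to 9.14) and a low band (1037 genes, 7.07 to 7.43). Many present genes were faint: 2025 present genes, 48.8%, lay between 7 and 8, 973 between 8 and 9, and 568 between 9 and 10. Only 31 genes lay between 13 and 14 and 3 above 14. The signal was concentrated, since the 100 brightest probes held 32.0% of the signal above background of present probes on replicate 1 and 34.3% on replicate 2. Of those 100 probes, 25 have no gene in the annotation and are not described. The rank is one of probe signal and not of transcript number, because probes bind with different strength.

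**Figure D1:**
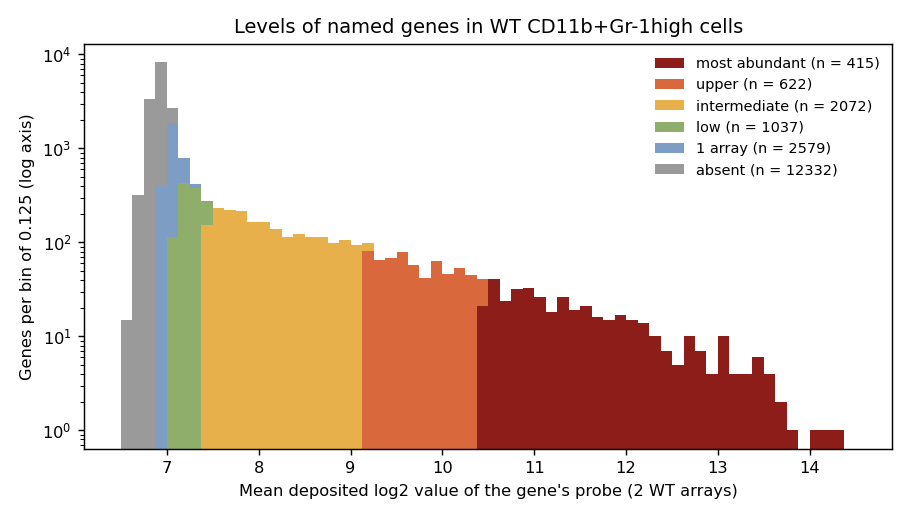
Number of named genes (log axis) by mean deposited log2 value over the 2 WT arrays, coloured by band. Absent genes pile up near 6.9, and the 4146 present genes tail off to 14.32, with 415 in the most abundant band.

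Of the 25 genes with the brightest probes, 4 were in the cytoskeletal list, 5 in the list of secondary and tertiary granules and 16 in neither. Cytoplasmic beta-actin, Actb, led with 14.37 and 14.27. S100a8, a subunit of the calcium-binding alarmin calprotectin, followed with 14.27 and 14.20, and Ybx1, which encodes an RNA-binding and cold shock domain protein, with a mean of 14.04 and an SD of 0.051 (n = 2). On the deposited scale these 3 were the genes above 14, and on both arrays they held the same order.

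Lysozyme, which cleaves bacterial cell walls, was read at 13.79 and 13.79 by the probe of Lyz2 and at 13.34 and 13.32 by that of Lyz1; the genes are near copies and whether their probes bind both transcripts was not tested. Haptoglobin (Hp, a hemoglobin-binding granule protein) had 13.26 and 13.45, lactoferrin (Ltf, which binds iron) 13.14 and 13.25, and lipocalin 2 (Lcn2, which sequesters bacterial siderophores) 13.11 and 13.10. The cytokine gene Il1b, which encodes interleukin-1 beta, had 13.39 and 13.54. Each granule gene in this set differed by less than 0.2 between the arrays.

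The actin regulators Zyx (zyxin, 13.70 and 13.76), Tmsb4x (thymosin beta-4, which binds actin monomers, 13.54 and 13.50) and Coro1a (coronin, 13.25 and 13.21) were in the same set. So were genes of iron storage and peroxide removal, Fth1 (ferritin heavy chain, 13.32 and 13.70) and Gpx1 (glutathione peroxidase, 13.60 and 13.60). The stress-responsive kinase gene Sgk1 had 13.36 and 13.57, and Btg1, an antiproliferative gene, 13.43 and 13.43. S100a11 had 13.50 and 13.81, Ifitm2, an interferon-induced membrane protein gene, 13.57 and 13.19, and Ubb-ps, annotated as a ubiquitin pseudogene, 13.65 and 13.42. Ribosomal protein genes Rpl23 (13.42 and 13.52) and Rps9 (13.20 and 13.31), and Ypel3, Itm2b, Tpd52 and Pgp with means between 13.14 and 13.44, completed the set. Most neighbours in this order cannot be ranked: Fth1, S100a11 and Ifitm2 moved by over 0.3 between the arrays, more than the step between many adjacent genes.

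**Figure D2:**
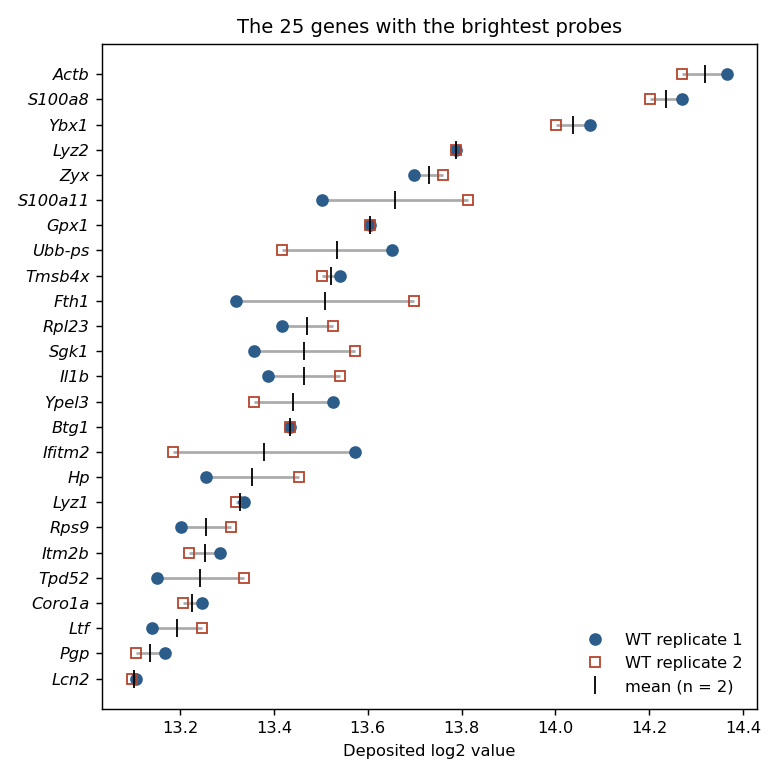
Deposited log2 values of the 25 genes with the highest WT mean on replicate 1 (filled circles) and replicate 2 (open squares), with the mean of both (bar, n = 2). Actb, S100a8 and Ybx1 stand above 14 on both arrays, while the remaining genes span 13.10 to 13.81 and overlap.

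The label of the cells was set against marker genes. Itgam, one of the antigens of the sort, was present at 7.78 and 7.95, an intermediate signal, and Ly6c1, one of the Ly6C genes, at 9.32 and 9.18. The probes with a gene name do not include Ly6g, which is not analysed here. All 10 measured defining neutrophil markers were present: Csf3r, Cxcr2, S100a8, S100a9, Mmp9, Ltf, Camp, Ngp, Lcn2 and Retnlg, with means from 10.71 to 14.24. These markers were chosen with earlier results of these data known, so the count is no independent check of the label. Over the other lineages, 9 of 34 measured defining markers were present, 26.5%, beside 21.8% of all genes. None was present on both arrays for B cells (of 2 measured), NK cells (2), dendritic cells (4), eosinophils (3) or platelets (3), whereas 1 of 3 T cell, 1 of 3 basophil and mast cell, 1 of 2 erythroid, 3 of 5 monocyte and 3 of 7 macrophage markers were.

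Among 26 measured genes of the wider neutrophil list, 23 were present, 1 was detected on 1 array and 2 were absent, against 21.8% of all genes. The median rank of the present members was 111 of 4146, where the median over all present genes is 2073.5. Of these members, 17 belonged to the most abundant band. This list too was chosen with earlier results of these data known, so neither count nor rank is an independent check of the label. S100a9, the partner of S100a8 in calprotectin, had 12.58 and 12.95, a spread of 0.37 that was the widest in the list in this direction. Fpr2, a receptor for formylated bacterial peptides, had 12.65 and 12.75. Padi4, which citrullinates histones in extracellular trap formation, was present only at 7.44 and 7.50. The absent members were Cd24a (6.88 and 6.91) and the collagenase gene Mmp8 (6.81 and 6.83), each with 1 probe.

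Of 27 secondary and tertiary granule genes, 20 were present, 4 were detected on 1 array and 3 were absent, and 13 were in the most abundant band. Besides Lyz2, Hp, Lyz1, Ltf and Lcn2 these included Cyba, the small subunit of cytochrome b558, at 12.32 and 12.62. The cathelicidin gene Camp had 11.60 and 11.73, and gelatinase B, Mmp9, 11.25 and 11.32.

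Of 11 primary granule genes, 2 were present on both arrays, 18.2%, a share near the 21.8% of all genes. Both were in the intermediate band: Srgn, the proteoglycan that packs granule proteases, at 8.62 and 8.92, and Serpinb1a, an inhibitor of neutrophil serine proteases, at 7.76 and 8.24. Neither encodes a protease or peroxidase. Neutrophil elastase (Elane, 6.99 and 7.25), myeloperoxidase (Mpo, 7.14 and 6.86) and cathepsin C (Ctsc, 6.91 and 7.13) were each detected on 1 array, Mpo on replicate 1 and the others on replicate 2. By replicate 2 alone 4 of the 11 were detected. Bpi, Ctsg, Gstm1, Ms4a3, Nkg7 and Prtn3 were absent, and 1 of these 6 had no detected probe on any of the 6 arrays of the series. In RNA of sorted cells, fewer cells of a stage and less RNA per cell cannot be told apart.

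The NADPH oxidase makes superoxide at the phagosome. Cyba, Ncf4 (p40phox, 12.06 and 11.93) and the GTPase gene Rac2 (10.54 and 10.67) were abundant, Rac1 (mean 8.09, n = 2) intermediate, and Ncf1 (p47phox) low at 7.59 and 7.20. Cybb, which encodes the catalytic gp91phox, was absent with 6.90 and 7.01, as was Rap1a. Cybb has 2 probes, of which 1 was undetected on all 6 arrays and the other was not. The value describes these probes, and whether they read the transcript well was not tested.

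Protease inhibitors were present for 10 of 16 genes. Cystatin C (Cst3) had 12.14 and 12.27, the secretory leukocyte protease inhibitor Slpi 11.57 and 11.52, and the stefins Stfa1 11.25 and 11.37, Cstb 11.02 and 11.23 and Stfa2 10.23 and 10.60. The Stfa genes are near copies of each other, and sharing of signal among them was not tested. The S100 and annexin families were more uneven, with 11 of 25 present. Annexin A2 (Anxa2, which binds membranes in a calcium-dependent way) had 12.80 and 12.72 and Anxa11 10.98 and 11.06, whereas Anxa4, Anxa8, Anxa9, S100a1, S100a10 and S100a13 were absent.

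**Figure D3:**
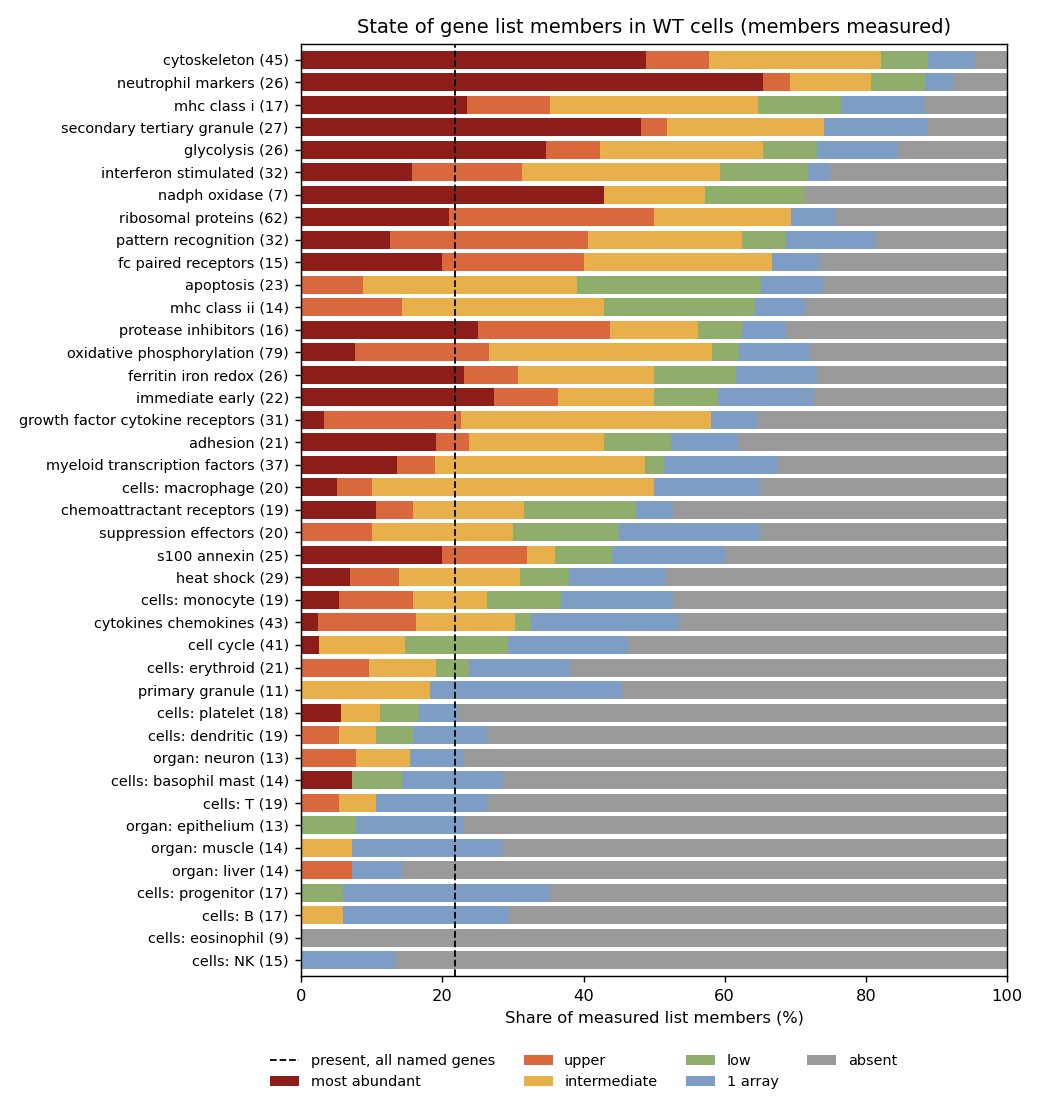
Share of the measured members of each gene list (number in brackets) in each band, on 1 array only or absent; the dashed line marks the 21.8% of all named genes that were present. Cytoskeletal and neutrophil lists fill 88.9% and 88.5% of their bars with present genes, and NK cell and eosinophil lists have none.

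Of 19 chemoattractant receptors, 9 were present, 47.4% beside 21.8% of all genes. After Fpr2 came Cxcr2 (the receptor for CXC chemokines, 10.74 and 10.68) and Ltb4r1 (for leukotriene B4, 10.28 and 10.06). Cxcr4 (which retains cells in the bone marrow) had 9.09 and 9.10. Ccrl2 (mean 8.88, SD 0.17, n = 2) and Cxcr1 (8.65 and 8.60) followed. Ptafr (7.25 and 7.31), Cx3cr1 (7.35 and 7.12) and Cxcr5 (7.14 and 7.32) were low, and the monocyte list also holds Cx3cr1. C3ar1, Ccr1, Ccr2, Ccr3, Ccr6 and Ccr7 were among the 9 absent. The complement C5a receptor C5ar1 was detected on replicate 1 (7.60) and not on replicate 2 (7.03), with a single probe. Adhesion genes were present for 11 of 21, led by Selplg (the P-selectin ligand, 12.07 and 12.08), Cd44 (a hyaluronan receptor, 11.37 and 11.39), Cd9 (10.76 and 10.94) and Itgal (the LFA-1 alpha chain, 10.56 and 10.48). Itgb2, the beta chain that pairs with both Itgal and Itgam, was low at 7.36 and 7.23. Of the 8 absent adhesion genes, 7 were undetected on all 6 arrays.

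Cytokine and growth factor receptors were present for 18 of 31 genes, mostly at intermediate level. Csf3r, the G-CSF receptor that drives granulopoiesis, was the only one in the most abundant band, at 11.34 and 11.02, and 4 of its 5 probes were present. Its other present probes read 11.06 and 11.26, 10.15 and 9.87, and 9.52 and 9.37, and the absent one 6.94 and 6.92, so the probes of this single gene spanned the most abundant band, the upper band and background. The interleukin-6 receptor Il6ra had 10.25 and 10.26, Tgfbr1 9.84 and 10.27, Il13ra1 9.94 and 10.07 and the TNF receptor Tnfrsf1a 9.76 and 9.31. The GM-CSF receptor chains were intermediate, with Csf2ra at 8.79 and 8.71 and Csf2rb at 7.76 and 7.94. Among absent receptors were Epor, Flt3, Ifnar1, Il10rb and Il2rb.

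Innate sensing genes were present for 22 of 32. The adaptor gene Myd88, through which most Toll-like receptors signal, had 12.51 and 12.24. Trem3 had 11.24 and 11.27, Tlr6 10.64 and 10.55, the C-type lectins Clec4d 10.61 and 10.54 and Clec7a (Dectin-1, a beta-glucan receptor) 10.46 and 10.34, and Tlr13, a sensor of bacterial ribosomal RNA, 10.31 and 10.46. Clec12a, Pycard, Ticam1, Tlr1, Tlr3 and Tlr9 were absent. Fc and paired receptors were present for 10 of 15, with Fcgr4 (12.06 and 12.25), Fcgr3 (11.35 and 10.83) and the paired receptor Pilra (10.84 and 10.71) most abundant. Fcer1g, the signaling chain shared by activating Fc receptors, was absent with 6.92 and 6.93, and each of the 4 absent genes of this list was undetected on all 6 arrays.

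Myeloid transcription factors were present for 19 of 37 genes. Cebpb, the C/EBP family member of granulopoiesis under stress, had 12.23 and 11.87. Bcl6 had 10.97 and 11.04, Klf2 11.11 and 10.64, Klf6 10.78 and 10.62, Lmo4 10.69 and 10.55 and Spi1, which encodes PU.1, 9.72 and 9.40. Cebpe, required for secondary granule formation, was intermediate at 8.26 and 8.06. Cebpa (7.10 and 6.85) and Gfi1 (6.92 and 7.33), which act from early granulocyte stages, were each detected on 1 array. Gata1, Gata2, Gfi1b, Hif1a, Irf4 and Irf8 were among 12 absent genes. Of those 12, 8 were undetected on all 6 arrays.

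Immediate early genes, which are transcribed soon after a stimulus, were present for 13 of 22, with 6 in the most abundant band. Zfp36 (tristetraprolin, which destabilizes cytokine mRNA) had 13.04 and 13.08, Junb 12.84 and 12.80, Dusp1 11.99 and 11.96, Fos 11.66 and 11.54, Egr1 11.39 and 10.99 and Ier3 10.93 and 10.80. Egr2, Fosb, Ier2, Ier5, Nr4a1 and Nr4a2 were absent.

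Of 43 cytokine and chemokine genes, 14 were present, 32.6% beside 21.8% of all genes, 9 were detected on 1 array and 20 were absent. Il1b was the only one of the list in the most abundant band. Ltb, the lymphotoxin beta gene, is not in the list and was picked after its value was seen, and it was also most abundant at 11.40 and 11.22. Oncostatin M (Osm) had 10.16 and 10.07, Il15 9.97 and 10.20, Tgfb1 9.99 and 9.57, Tnfsf13b (the B cell survival factor BAFF) 9.66 and 9.74 and Ccl6 9.23 and 9.54. Tnf was intermediate at 8.83 and 8.52, and so was the interleukin-1 receptor antagonist Il1rn at 8.98 and 8.85. Ccl2, Ccl5, Ccl7, Ccl12, Ccl17 and Csf2 were absent. The interferon-inducible chemokine Cxcl10 was read at 6.97 on replicate 1 and at 7.50 on replicate 2, and only the latter was detected.

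Genes linked to suppression by myeloid-derived suppressor cells, the cells that the series was designed to study, were present for 9 of 20. None was in the most abundant band, but that band holds only 2.18% of all named genes. Cd33, an inhibitory sialic acid receptor, had 10.10 and 10.13 and Cd274, which encodes PD-L1, 9.04 and 9.25. The cystine transporter gene Slc7a11 had 8.34 and 8.78 and the inhibitory Fc receptor Fcgr2b 8.12 and 8.11. Arginase 1 (Arg1, 7.12 and 7.03) and inducible nitric oxide synthase (Nos2, 6.99 and 7.10) were each detected on 1 array only, whereas Arg2 was present at a low 7.29 and 7.35. Prok2, a G-CSF-inducible angiogenic factor, was also low at 7.24 and 7.34. Entpd1, Ido1, Il10, Il4ra, Nt5e and Ptgs2 were absent.

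**Figure D4:**
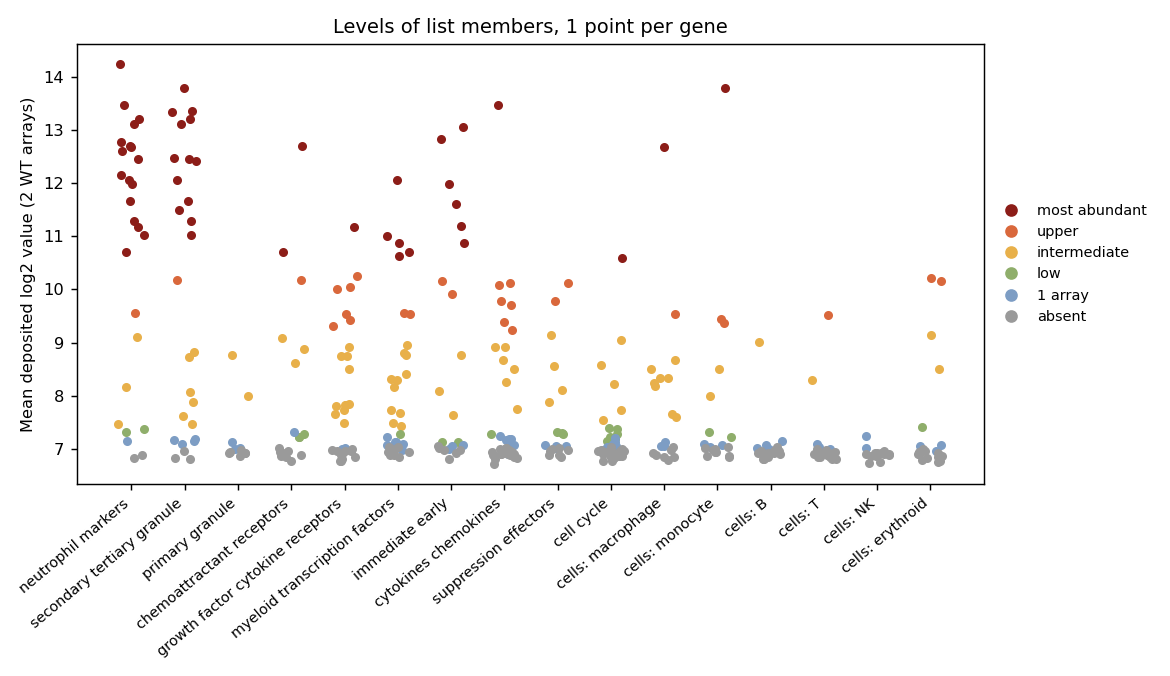
Mean deposited log2 value over the 2 WT arrays for each measured member of 16 gene lists, 1 point per gene, coloured by band. Neutrophil and later granule genes rise to 14.24 and 13.79, primary granule genes stay at or below 8.77, and most lymphocyte genes cluster near 6.9.

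Interferon-stimulated genes were present for 23 of 32. The membrane protein genes Ifitm2, Ifitm1 (12.70 and 12.70) and Ifitm3 (11.94 and 12.01) led, followed by Rsad2 (viperin, 11.13 and 11.12), the guanylate-binding protein gene Gbp2 (10.85 and 11.06) and Oas2 (10.11 and 10.16). Bst2, Ifi47, Ifih1, Ifit1, Isg20 and Mx1 were among 8 absent, of which 5 were undetected on all 6 arrays. For MHC class I, which presents cytosolic peptides, 13 of 17 genes were present, with Pdia3 at 12.65 and 12.61, beta-2 microglobulin (B2m) at 12.26 and 12.47 and H2-D1 at 12.30 and 12.30. For MHC class II presentation, 9 of 14 were present and none was in the most abundant band, which holds 2.18% of all named genes. Leaving out the costimulatory genes Cd40, Cd80 and Cd86, which were all present, 6 of 11 were: H2-Ea had 10.28 and 10.37, the invariant chain Cd74 9.98 and 9.96, H2-Eb1 8.80 and 8.96 and H2-Ab1 8.44 and 8.38. The class II transactivator Ciita and H2-Aa were absent at 6.91 and 7.05, and 6.84 and 6.86. Of cells that can carry class II, no defining marker of B cells or dendritic cells was present on both arrays, but 3 of 7 of macrophages and 3 of 5 of monocytes were. Their part in these levels was not tested.

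Genes of general cell functions were largely present. Cytoskeletal genes were present for 40 of 45, 22 of them most abundant, with a median rank of 309.5. Arpc5, of the Arp2/3 complex that branches actin, had 13.06 and 13.10 and Tuba1b, an alpha-tubulin, 13.10 and 12.86. The 2 absent members, Lsp1 and Rhoa, were undetected on all 6 arrays. In glycolysis and the linked sugar pathways 19 of 26 genes were present. Taldo1, of the pentose phosphate pathway, had 12.73 and 12.93, Pfkfb4 11.69 and 11.72, glycogen phosphorylase (Pygl) 11.71 and 11.53, Pkm 11.31 and 10.98, the glucose transporter Slc2a3 10.91 and 11.04 and hexokinase Hk3 10.90 and 10.69.

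Oxidative phosphorylation genes were present for 49 of 79, and 6 were in the most abundant band, which holds 10% of all present genes. Atp5g3 (12.27 and 12.35) and Cox6b1 (11.84 and 11.84) led. Genes of iron and redox handling were present for 16 of 26. Alox5ap, which delivers arachidonic acid for leukotriene synthesis, had 13.01 and 13.03. The iron exporter ferroportin (Slc40a1) had 12.59 and 12.78 and was present in 1 of its 2 probes. Ribosomal protein genes were present for 43 of 62, and 15, Rpl13a and Rpl14 among them, were absent. Of these 15, 7 had no detected probe on any of the 6 arrays. An absent call describes the probe, and whether the transcript was lacking was not tested.

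Cell cycle genes were present for 12 of 41, 29.3% beside 21.8% of all genes, with 7 on 1 array and 22 absent. Ccnd3, which encodes cyclin D3 and is also used by non-dividing cells, was the only one of the list in the most abundant band at 10.60 and 10.57. E2f1 and Orc5 are not in the list and were picked after their values were seen. They were also most abundant, at 10.90 and 10.89 and at 11.17 and 11.37. Within the list, lower levels followed. The centromeric histone gene Cenpa had 8.93 and 9.17 and the replication helicase gene Mcm4 8.28 and 8.87. The mitotic kinase genes Aurkb, Bub1 and Bub1b and the cyclin genes Ccna2, Ccnb2 and Ccne1 were absent. Apoptosis genes were present for 15 of 23 and none was in the most abundant band, which holds 2.18% of all named genes. Mcl1, on which neutrophil survival depends, had 10.42 and 10.33, the death receptor gene Fas 10.08 and 10.37, and Bid 9.06 and 9.12. Heat shock and folding genes were present for 11 of 29, with the cyclophilin gene Ppia at 12.50 and 12.79.

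Markers of other cells were counted over their whole lists. Of 182 measured genes of 11 other cell types, 33 were present, 18.1%, below the 21.8% over all genes, and of 54 genes of 4 other organs 5 were, 9.26%. Macrophage genes were present for 10 of 20. Slc40a1, transferrin (Trf, 9.50 and 9.58), Axl (8.71 and 8.62) and Csf1r (8.61 and 8.38) were highest. The complement genes C1qc (8.28 and 8.19) and C1qb (8.17 and 8.19) and Vcam1 (8.38 and 8.27) were intermediate. Slc40a1 and Axl were each present in 1 of 2 probes and Vcam1 in 1 of 4. The other Slc40a1 probe was absent with a mean of 6.89. C1qa, Cd163 and Mertk were absent and Adgre1 was detected on 1 array. Monocyte genes were present for 7 of 19, 36.8%: Lyz2, which the granule list also holds, Csf1r, which the macrophage list also holds, Cd14 (9.44 and 9.44), Treml4 (9.38 and 9.36), Ms4a6d, Ly86 and Cx3cr1. Ccr2 (6.78 and 6.91) and Irf8 (7.04 and 7.04) were among 9 absent. The part of macrophages and monocytes in the levels of other genes was not tested.

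Erythroid genes were present for 5 of 21, 23.8%, near the 21.8% of all genes. The globins Hbb-bt had 10.36 and 10.06, Hba-a1 10.31 and 10.01 and Hbb-bs 9.30 and 8.99. Alas2, the first enzyme of heme synthesis in red cells, was absent. T cell genes were present for 2 of 19, 10.5%, below the 21.8% of all genes. These were Cd3d (9.35 and 9.68) and Cd8b1 (8.16 and 8.43, in 1 of 3 probes), while Cd3e, Cd3g, Cd4 and Cd8a were absent. Cd37 was the single present gene of 17 in the B cell list, 5.88%. By replicate 1 alone 5 B cell and 5 T cell genes were detected. Platelet genes were present for 3 of 18, 16.7%, also below the 21.8% of all genes. These were Nfe2 (11.23 and 10.85), Plek (7.61 and 7.96) and Tubb1 (7.06 and 7.35). Another 14, Pf4, Ppbp and Itga2b among them, were absent. Hdc, listed for basophils and mast cells and for neutrophils alike, had 12.72 and 12.63. Outside blood, the liver gene Cps1 was present at 10.12 and 10.25 and the myelin gene Mbp at 10.22 and 10.37 in 2 of 5 probes, with albumin (Alb) and Gfap absent. The methods give female mice. Eif2s3y, Kdm5d, Uty and Zfy1 of the Y chromosome were absent, and Sry, with 1 probe, was detected on replicate 2. Xist was absent on its 4 probes, of which 3 were undetected on all 6 arrays.

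The probes of 1 gene often disagreed. Of 2635 genes with 2 or more probes and at least 1 present, all probes were present for 402, 15.3%, and at least 1 was absent for 1943, 73.7%. Where 2 or more probes were present, in 952 genes, the brightest and dimmest differed by a median of 0.91 on the log2 scale and by over 1 in 438. Ybx1 had the widest gap between a present and an absent probe, 14.04 against 6.85. Lyz2 had one of 13.79 and one of 6.94, Tmsb4x 13.52 and 6.72, and Lyz1 13.33 and 6.71. Rpl23, Ypel3, Tpd52, Itm2b, Arpc5 and Npm1 had gaps between 6.20 and 6.56. Each of these 10 genes of the most abundant band would be called absent from another of its own probes.

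Over the 6169 present probes the arrays correlated with Pearson's r of 0.986 and Spearman's rho of 0.952, a description across probes, which are not independent of each other. The difference between the arrays had an SD of 0.219, the median SD per probe (n = 2) was 0.098, and 185 probes differed by over 0.5 and 0 by over 1. For the 1588 present probes with a mean of at least 9 the SD of the difference was 0.201. Absent probes had an SD of 0.0906, which is the spread of background and no sign of a better measurement. These spreads are on the quantile-normalized scale: with background correction by neqc the SD over present probes was 0.452, and with median centring 91.1% of present probes were higher on replicate 1.

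On the quantile-normalized scale, the largest excess on replicate 1 was in Fam89b, at 8.76 and 7.83, followed by Cited2, a transcriptional coregulator gene, at 9.07 and 8.23, and by Nif3l1, H4c6, Morf4l1, Ppox, Hdac4 and Ube2k with differences of 0.73 to 0.84. On replicate 2 the largest was in Mlxipl, a glucose-responsive transcription factor gene, at 7.48 and 8.29, followed by Setd4, Abcf1, Ncbp3, Wdr74, Klf10, Hmgxb3 and Zfand1. No gene of the most abundant band was among these 16. With 2 arrays, no error of a single gene can be known better than these spreads allow, and which of these differences would return in further animals was not tested.

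**Figure D5:**
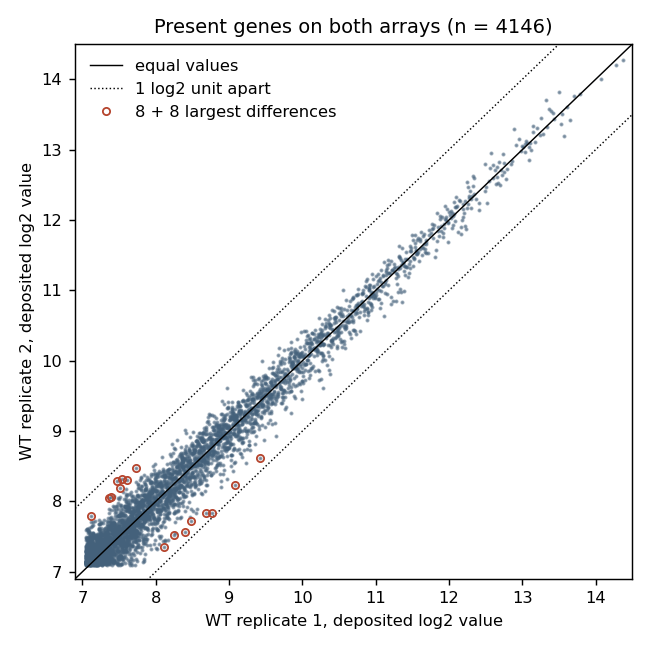
Deposited log2 values of the 4146 present genes on WT replicate 1 and WT replicate 2, with the line of equal values, dotted lines 1 log2 unit from it and the 8 largest differences in each direction circled. No gene lies beyond the dotted lines, and the circled genes lie below 9.5 on both arrays.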

How the data were processed

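RNA of CD11b+Gr-1high spleen cells was read on 6 arrays, 2 per group, and the 2 WT arrays are described here. The authors deposited probe intensities exported from GenomeStudio, each with a detection p-value, and log2 values made with lumi and quantile normalized over the arrays. The methods name background subtraction, but the lowest deposited intensities of the WT arrays were 85.5 and 91.7, with medians of 117.2 and 126.9, so the values keep background. Versions are not given in the sources used here. The number of arrays limits the precision.

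Of 45281 probes, the platform annotation gives 1 gene to 34885, several to 18 and none to 10378. Entrez numbers matched a current list for 34807, and 0 symbols changed. Levels are means of the deposited log2 values, computed with Python 3.11.15, pandas 2.3.3 and numpy 2.4.6, with limma 3.58.1 in R 4.3.3 for neqc (offset 16). The counting code was tested on simulated data. No test was run.

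Gene lists and their members were chosen with earlier results of these data known. Named genes are the 25 with the highest mean, up to 6 present and 6 absent members per list (absent ones in alphabetical order), up to 4 present members of other cell types and organs, the defining markers, the 8 largest differences in each direction and the 10 widest gaps between probes. Members detected on 1 array, the low chemoattractant receptors and some members with a known role, such as Arg2, Tnf and Cebpe, were added after their values were seen. Alternatives were a detection threshold of 0.01, each array alone, median centring, quantile normalization of the WT arrays alone, neqc, and the mean of a gene's present probes.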

Additional observations from a re-analysis of the deposited data

How the results depend on the processing

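No paired analysis was possible because the description covers 1 group and comes from no test. With a detection p under 0.01, 5050 probes and 3438 genes were present. Leaving out one array at a time gave between 7421 and 9175 probes and between 4976 and 5975 genes. Gene lists whose share of present members lay above that of all genes numbered 29 of 43, and between 28 and 31 under these settings. Of the 100 genes with the highest signal, 100 were shared with quantile normalization of the WT arrays alone and with neqc, 99 with median centring, between 95 and 97 with 1 array left out, and 73 when the mean of a gene's present probes was used. All 415 genes of the most abundant band were shared with neqc. Quantile normalization, neqc and median centring keep the order of probes within an array, so these overlaps could hardly differ. The levels themselves shifted. Deposited means of Actb, Ybx1 and Lyz2 were 14.32, 14.04 and 13.79. With quantile normalization of the WT arrays alone they were 14.11, 13.67 and 13.21, and with median centring 14.14, 13.69 and 13.22. With neqc they were 14.32, 14.06 and 13.85. Which genes lie above 14 thus depends on the scaling. The SD of the difference between the arrays rose from 0.219 to 0.452 with neqc, which subtracts background before the log, and was 0.243 with median centring. With median centring 91.1% of present probes (5617 of 6169) were higher on replicate 1, by a median of 0.26, so which array is higher depends on the scaling. Lists with few present members moved most: by replicate 2 alone 4 primary granule genes were detected in place of 2, and by replicate 1 alone 5 B cell and 5 T cell genes in place of 1 and 2. Over all lists the count moved by over 1.5 times in 1 list with the stricter threshold and in 6 and 7 with 1 array left out. Signal close to background limits the order of genes in the low band.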
